A study of Mus musculus with 12 samples.

Results

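The 7 genes described here are Srebf2, Insig1, Hmgcs1, Idi1, Sqle, Lss and Cyp51, taken by name from the 52636 genes counted in mouse liver RNA-seq libraries. They hold the sterol sensor's transcription factor, its brake and 5 enzymes of cholesterol synthesis. All 7 passed the filter of a mean count of at least 12, as did 12453 genes in all. The libraries came from 12 male C57Bl/6J offspring at 16 weeks of age, with 1 liver library per mouse. The 6 VDD-F1 mice were born to dams fed a diet without vitamin D, with calcium gluconate added, from before mating until delivery. The 6 VDS-F1 mice were born to dams fed the matched diet that contains vitamin D. All dams received the vitamin D sufficient diet after delivery, and all offspring after weaning, so the groups differ in maternal diet and not in their own. The paper states that VDD-F1 offspring remained deficient or insufficient early after birth, so the exposure was not only prenatal. The litters are not given in the sources used here, and p-values measure the spread between mice that may share a litter. The study records a liver weight for 7 of the 12 mice (VDS3 to VDS6 and VDD4 to VDD6) and none for the other 5 (VDS1, VDS2 and VDD1 to VDD3). These sets of mice were compared as well, because the mice of a set may have been handled together.

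Cholesterol is made from acetyl-CoA through mevalonate, isoprenoids, squalene and lanosterol. Srebf2 encodes SREBP-2, a transcription factor held in the endoplasmic reticulum when sterols are plentiful and released by proteolysis when they are low. It then binds sterol regulatory elements in the promoters of the pathway's enzymes and of its own gene, often with the factor NF-Y. Insig1 encodes the protein that keeps SREBP in the endoplasmic reticulum and is itself a target of SREBP. Liver is a main site of cholesterol synthesis, and the transcripts of the pathway follow feeding, sterol supply and time of day.

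Each library held between 14275793 and 20815066 reverse-strand counts, and the deposited names give 1 flow cell and lane for all. The lowest count of a member in any library was 242, for Idi1, so counting error was small beside the spread between mice. Hepatocyte markers were high in every library, with a summed level of 75689 to 107468 CPM (read counts scaled to the size of each library). Pancreas markers, which would show neighbouring tissue, summed to at most 0.603 CPM. VDD2 stood apart from the other mice in markers of other cell types, with 607 CPM of stellate cell markers against 245 to 418 in the other mice and 81.9 CPM of cholangiocyte markers against at most 40.5. Of 33 markers, 27 were tested and 0 were called by edgeR in any of the 3 comparisons, where 8 had an unadjusted p under 0.05 for diet (15.8% of all genes), 6 for the set of mice (13.9%) and 4 for their interaction (9.01%). Within the mice with a recorded liver weight 9 of the 27 were called between the diets, as given beside the results in those mice. In bulk tissue, fewer cells of a type and less RNA per cell cannot be told apart.

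The promoters are shown first because the 7 genes are grouped as SREBP-2 genes. RefSeq (build GRCm38.p6) gave a window of 250 bases before to 50 bases after the start for 6 of the 7 genes. Both strands were searched for TCACNCCA, a short form of the sterol regulatory element, and for CCAAT, the NF-Y box, which reads ATTGG on the other strand. CCAAT was present in 6 of the 6 windows, against 37.4% of all 32851 windows. TCACNCCA was present in 2 of the 6, Srebf2 and Hmgcs1, against 4.36% of all windows. The stretches below lie before the annotated starts on the + strand, at chr15:82147079-82147178 for Srebf2, chr13:119690161-119690260 for Hmgcs1, chr5:28071182-28071281 for Insig1 and chr10:76531475-76531574 for Lss. Capitals mark both motifs.
Srebf2: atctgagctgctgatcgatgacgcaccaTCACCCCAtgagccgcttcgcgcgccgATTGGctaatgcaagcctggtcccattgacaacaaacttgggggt
Hmgcs1: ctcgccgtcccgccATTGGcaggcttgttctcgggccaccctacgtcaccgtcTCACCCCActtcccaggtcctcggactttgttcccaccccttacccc
Insig1: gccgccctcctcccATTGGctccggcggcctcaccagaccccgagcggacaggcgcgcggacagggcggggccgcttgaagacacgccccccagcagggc
Lss: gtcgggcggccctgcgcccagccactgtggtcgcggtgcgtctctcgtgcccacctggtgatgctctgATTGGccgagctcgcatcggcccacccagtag

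In Srebf2, 19 bases separate the sterol element from the NF-Y box, and in Hmgcs1 the nearest box lies 34 bases away. The Hmgcs1 window holds 4 NF-Y boxes in all, the Idi1 window 2, and the windows of Srebf2, Insig1, Lss and Cyp51 1 each. Of the other 16 enzymes of the pathway, 12 had a window, 11 with CCAAT and 1 with TCACNCCA. A further motif, the E-box CACGTG, was found in 1 of the 6 windows, Insig1, against 7.15% of all windows. These are matches of letters in a short window, and binding was not measured.

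Per kilobase of exon, the members' median levels over the 12 livers ran from 119 CPM per kb for Insig1 through 75.9 for Hmgcs1, 34.3 for Cyp51, 11.5 for Srebf2, 11.3 for Sqle and 7.74 for Idi1 to 4.58 for Lss. Hmgcs1 was above Cyp51 and Cyp51 above Srebf2 in 12 of 12 mice, and Insig1 was above Hmgcs1 in 11. Srebf2 exceeded Sqle in 6 of 12 mice, so that these neighbours did not differ beyond their spread. Sqle was above Idi1, and Idi1 above Lss, in 10 of 12. The exon lengths (3093 bp for Insig1 to 10787 bp for Lss) are the union of all annotated transcripts, which lowers the level of genes with long minor transcripts such as Lss.

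Among the regulators, Srebf2 (chromosome 15, 82147181 to 82205379 in GRCm38, + strand) ranged from 63.6 to 120 CPM in VDD-F1 mice with a median of 79.2, and from 81.5 to 105 CPM in VDS-F1 mice with a median of 85.4. VDD2 was the lowest of the 12 mice and VDD3 the highest, and the groups overlapped. Insig1 (chromosome 5, 28071363 to 28078662, + strand) had 251 to 609 CPM in VDD-F1 (median 359) and 276 to 708 CPM in VDS-F1 mice (median 374). Its highest value was in VDS2, followed by VDD3. Srebf2 was the steadiest member, with a highest level 1.88 times the lowest over the 12 livers, against 2.82 times for Insig1.

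Hmgcs1 (chromosome 13, 119690379 to 119708260, + strand) encodes HMG-CoA synthase 1, which makes the precursor of mevalonate in the cytosol. It ranged from 179 to 1015 CPM in VDD-F1 (median 329) and from 294 to 557 CPM in VDS-F1 mice (median 359). Its reverse-strand count was 153% of the count that ignores the strand, since fragments over an overlapping gene on the other strand are left out of the latter. Idi1 (chromosome 13, 8885501 to 8892451, + strand), the isomerase that interconverts the isoprenoid building blocks, had 12.6 to 56.9 CPM in VDD-F1 (median 27.1) and 19.8 to 33.4 CPM in VDS-F1 mice (median 28.3). For both genes the lowest and the highest value of the 12 livers were in VDD-F1 mice, and the VDS-F1 mice lay between them.

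Sqle, Lss and Cyp51 act after squalene is formed. Sqle (chromosome 15, 59315077 to 59331192, + strand) encodes squalene epoxidase, a rate-limiting step of the sterol branch. Its VDD-F1 values were 107, 25.5, 233, 37.4, 40.9 and 49.3 CPM in VDD1 to VDD6, and its VDS-F1 values were 92.1, 158, 52.0, 56.1, 69.6 and 93.4 CPM in VDS1 to VDS6. Sqle varied most of the 7 genes, with a highest level 9.13 times the lowest. Lss (chromosome 10, 76531588 to 76557138, + strand), which closes the rings to form lanosterol, ranged from 32.5 to 133 CPM in VDD-F1 (median 44.5) and from 47.2 to 112 CPM in VDS-F1 mice (median 51.4). Cyp51 (chromosome 5, 4081145 to 4104746, - strand), the lanosterol demethylase, ranged from 73.6 to 318 CPM in VDD-F1 (median 143) and from 131 to 180 CPM in VDS-F1 mice (median 166). In all 3 genes VDD2 was the lowest mouse and VDD3 the highest.

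**Figure D1:**
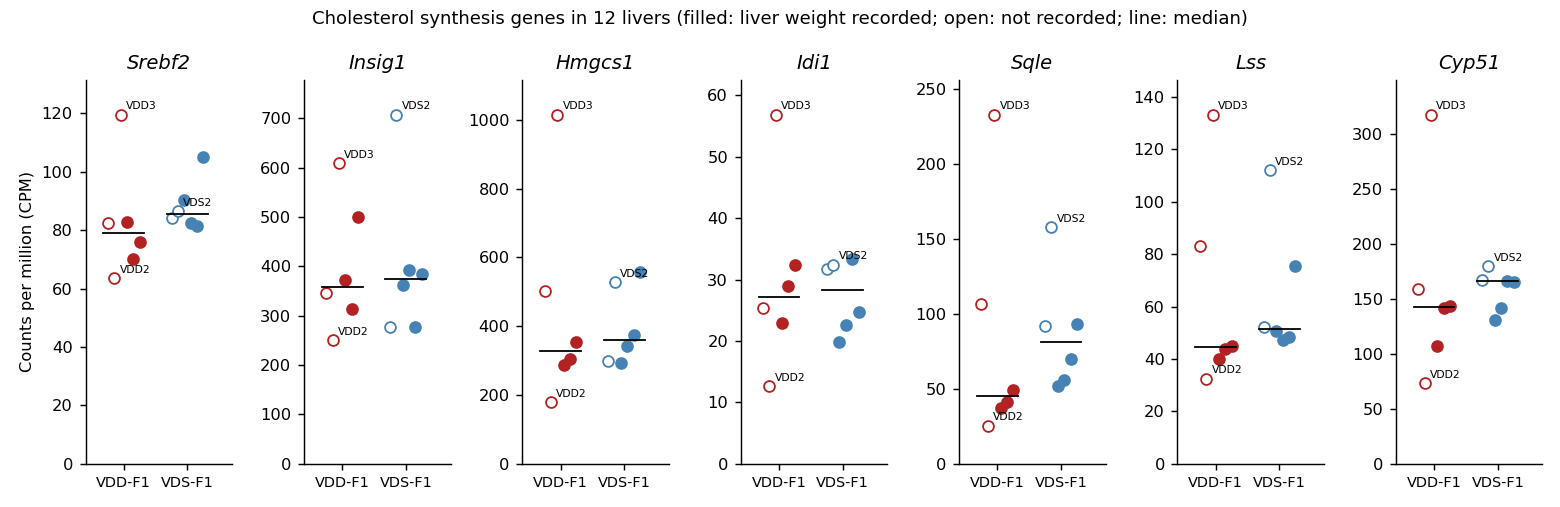
Level of each of the 7 genes in CPM (vertical axis, from 0) by maternal diet, with 1 point per mouse, filled where a liver weight is recorded and open where none is, and a line at the group median. VDD2 is the lowest point in all 7 panels and VDD3 the highest in 6; in Insig1 the highest is VDS2 at 708 CPM.

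The diet comparison asks whether the maternal diet without vitamin D changed the transcripts of cholesterol synthesis in the adult liver. None of the 7 genes was called. Over all genes, 5 of 12453 (0.0402%) had an adjusted p-value under 0.05 in edgeR, and 1972 (15.8%) had an unadjusted p under 0.05, against 0 of the 7 members. DESeq2's Wald test called 504 genes (4.05%) and again 0 of the 7. The mean level of Hmgcs1 was 440 ± 301 CPM in VDD-F1 (SD, n = 6) against 400 ± 115 CPM in VDS-F1 mice (SD, n = 6), which gave a log2-fold change of 0.14 (95% interval -0.59 to 0.87, adjusted p = 0.888). For Srebf2 the means were 82.5 ± 19.7 CPM (SD, n = 6) against 88.4 ± 8.71 CPM (SD, n = 6), with a log2-fold change of -0.10 (95% interval -0.38 to 0.18, adjusted p = 0.759), the narrowest interval of the 7. The widest interval was that of Sqle, with a log2-fold change of -0.09 (-1.10 to 0.93, adjusted p = 0.958). Idi1 had a log2-fold change of 0.12, Lss of -0.03, Cyp51 of -0.01 and Insig1 of -0.01, with adjusted p-values from 0.876 to 0.995. The members' median log2-fold change was -0.01, and that of all genes tested was 0.00413. The members' median depended on single mice, with 0.10 without VDD2 and -0.30 without VDD3, and 0 of the 7 were called in either fit. The intervals leave room for a 2-fold difference in Sqle in the downward direction, so the data do not show that its level was alike in both groups.

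The spread among VDD-F1 mice rested largely on VDD2 and VDD3, and its difference from the spread among VDS-F1 mice was not tested. The SD of log2 CPM of Sqle was 1.17 among VDD-F1 and 0.59 among VDS-F1 mice, that of Cyp51 0.70 and 0.17, and that of Hmgcs1 0.85 and 0.40. Over all genes tested, the median SD was 0.27 among VDD-F1 and 0.23 among VDS-F1. Without VDD2 and VDD3 the SD of log2 CPM among the 4 remaining VDD-F1 mice was 0.69 for Sqle, 0.24 for Cyp51 and 0.36 for Hmgcs1. Insig1 had nearly the same SD in both groups, 0.46 and 0.50.

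The lowest and the highest liver lay in the same group and in the same set of mice. VDD2 held the lowest level of 7 of the 7 members and of 11 of the 16 other cholesterol synthesis enzymes, against 17.6% of all genes tested. VDD3 held the highest level of 6 of the 7 members and of 14 of the 16 other enzymes, against 9.68% of all genes. Of the 7 other sterol-responsive SREBP-2 targets, VDD3 held the highest level of 5 (Stard4, Tmem97, Rdh11 and Aacs among them) and VDD2 the lowest of 3 (Stard4, Rdh11 and Mmab). In the 11 genes of sterol export, storage and the sterol receptors LXR, VDD3 held the highest level of 0. VDD2 held the lowest level of 2 (Nr1h3 and Lcat) and the highest of 4, against 18.6% of all genes that were highest in VDD2. These 4 were the sterol transporters Abcg1, Abcg5 and Abcg8 and the esterifying enzyme Soat1. The names in these counts were taken after the values were seen. VDD3 also had the highest sum of hepatocyte markers, 107468 CPM, and VDD2 the lowest of the VDD-F1 mice, 86676 CPM, within the 75689 to 95274 CPM of the VDS-F1 mice. The part of cell composition in these levels was not tested.

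**Figure D2:**
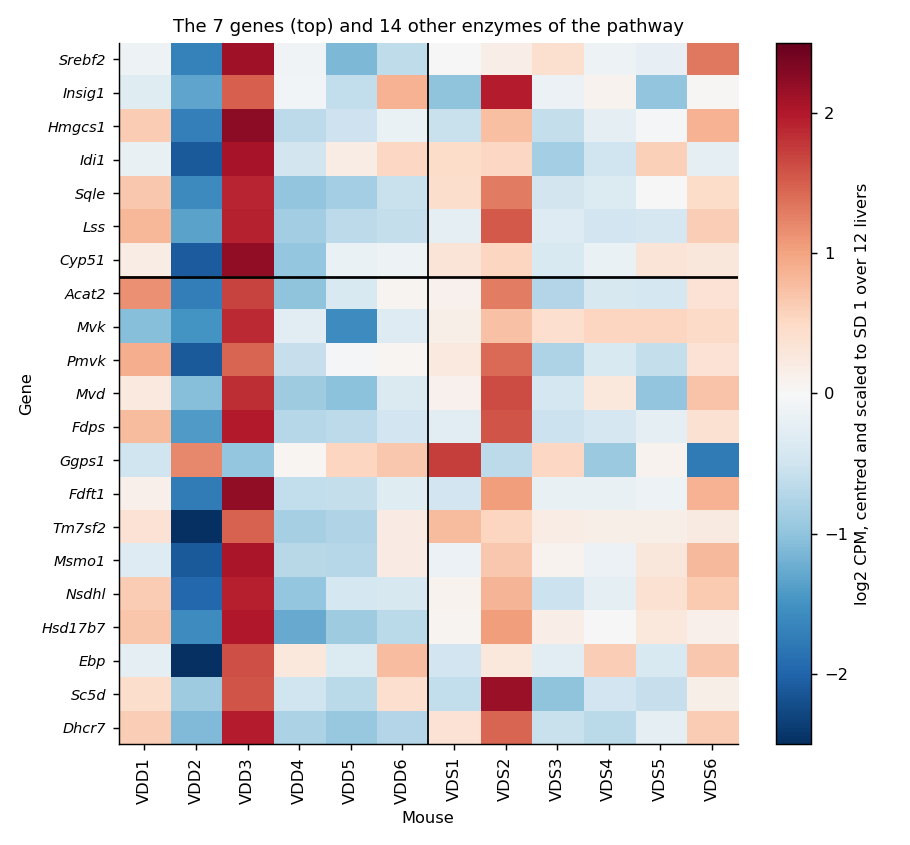
Levels of the 7 genes (above the line) and of 14 of the 16 other cholesterol synthesis enzymes in each of the 12 mice, as log2 CPM centred and scaled to an SD of 1 per gene, from blue (low) to red (high). The VDD2 column is blue and the VDD3 column red in most rows, and Ggps1 is an exception in both.

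The members moved together over the livers. The correlation of each gene's log2 CPM with the mean scaled level of the other 6, over 12 livers, was 0.96 for Hmgcs1, 0.93 for Cyp51, 0.93 for Sqle, 0.91 for Lss, 0.80 for Srebf2, 0.80 for Idi1 and 0.68 for Insig1. Without VDD2 and VDD3, the livers farthest from the median, the values over 10 livers were 0.91 for Lss, 0.88 for Sqle, 0.85 for Hmgcs1 and 0.71 for Cyp51. They were 0.40 for Insig1, 0.34 for Srebf2 and 0.20 for Idi1, so for these 3 genes the relation rested on the same 2 livers. These points share libraries and scaling, and the values are descriptions without a test.

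Of the 5 genes most like the mean of the 7 over 12 livers, 4 were other enzymes of the pathway. They were Fdft1 (squalene synthase, r = 0.98), Nsdhl (a sterol dehydrogenase, 0.96), Fdps (farnesyl diphosphate synthase, 0.95), Msmo1 (sterol methyl oxidase, 0.95) and Stk38l (a serine/threonine kinase, 0.93). After the mean of each combination of diet and set was subtracted, they were Fdft1 (0.99), Msmo1 (0.98), Dhcr7 (0.97), Fdps (0.97) and Nsdhl (0.97). Over the 16 other enzymes the median correlation was 0.90, with a lowest value of -0.61, that of Ggps1, which makes the geranylgeranyl side branch. The median over the fatty acid synthesis genes was 0.74, over the other sterol-responsive targets 0.70, over the core clock genes 0.09 and over sterol export and LXR genes -0.23. Over the 8 genes of SREBP retention and processing it was 0.20 (-0.67 to 0.84). It was -0.00216 over the 12446 other genes tested.

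Within the sets of mice, the diet comparison was repeated. Among the 7 mice with a recorded liver weight, Sqle had 37.4 to 49.3 CPM in the 3 VDD-F1 and 52.0 to 93.4 CPM in the 4 VDS-F1 mice, and the groups did not overlap. Its log2-fold change was -0.67 (SE 0.18, 95% interval -1.07 to -0.26, edgeR adjusted p = 0.0399), and Sqle was the 1 member of 7 called lower. Of all 12369 genes tested in these mice 11% were called and 5.11% were called lower, so that 1 gene of 7 is no result about the members as a group. Markers of cell types differed between the diets in the same 7 mice, with 9 of 27 called. Alb (hepatocytes), Col1a1 and Dcn (stellate cells) and Epcam and Spp1 (cholangiocytes) were higher in VDD-F1, and Cyp2e1 (hepatocytes), Cd5l and Clec4f (Kupffer cells) and Stab2 (endothelial cells) were lower, all named after their values were seen. The summed markers did not overlap for hepatocytes (95011 to 99927 CPM in VDD-F1 and 75689 to 85799 CPM in VDS-F1) or stellate cells (344 to 418 and 245 to 296 CPM). Nor did those of cholangiocytes (at least 35.4 and at most 26.4 CPM), lymphocytes (at least 2.75 and at most 2.29 CPM) or Kupffer cells (77.7 to 127 and 131 to 175 CPM). Those of endothelial cells (231 to 255 and 242 to 285 CPM) and pancreas overlapped. Alb had the highest counts of the hepatocyte markers, and lymphocyte markers were near the floor, with at most 68 counts in a library. Of all single genes, 11.4% were lower in VDD-F1 without overlap in these mice. The part of the marker differences in the call of Sqle, and in those of other genes within the recorded mice, was not tested. Lss also did not overlap, with 40.0 to 45.0 and 47.2 to 75.6 CPM, but was not called (log2-fold change -0.36, adjusted p = 0.170); 11.4% of all genes were lower without overlap. Leaving out each of the 7 mice in turn kept the call of Sqle in 3 fits and lost it in 4, those without VDD4, VDD5, VDD6 or VDS5, with an adjusted p of up to 0.138. The other 5 members had adjusted p-values of 0.197 to 0.601.

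Among the 5 mice without a recorded liver weight, 0 of 12541 genes (0%) were called by edgeR and 473 (3.77%) had an unadjusted p under 0.05, with 0 members among the latter. Sqle had 25.5 to 233 CPM in VDD1 to VDD3 and 92.1 to 158 CPM in VDS1 and VDS2, a log2-fold change of -0.04 (95% interval -1.85 to 1.76). The interaction of diet and set tests whether the diet difference differed between the sets. It was called for 11 of 12453 genes (0.0883%) and for 0 of the 7 members. Without VDD2 it was called for 332 of 12369 genes and again for 0 members. Over all 12 mice, 1122 genes (9.01%) and 0 members had an unadjusted p under 0.05. For Sqle it was -0.63 (SE 0.77, edgeR adjusted p = 0.886), so that the call of Sqle in the recorded mice is not shown to be particular to them.

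**Figure D3:**
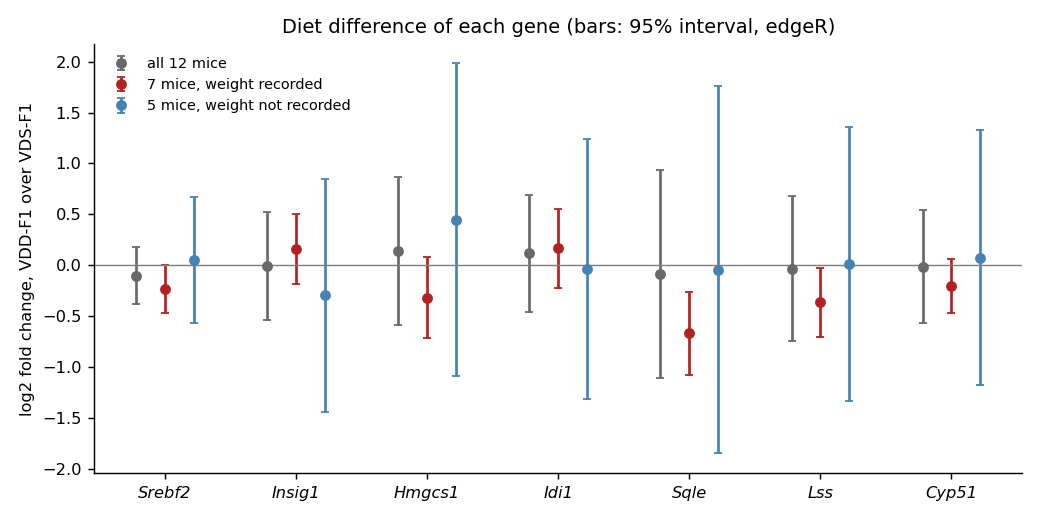
Log2-fold change of VDD-F1 over VDS-F1 (vertical axis) for each of the 7 genes, in all 12 mice and within each set of mice, with 95% intervals from edgeR. The interval lies below 0 for Sqle (-1.07 to -0.26) and Lss in the 7 mice with a recorded liver weight, and includes 0 for each of the 7 genes in all 12 mice and in the 5 other mice.

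The sets themselves were compared with diet in the model. All 7 members were lower in the mice with a recorded liver weight, as were 52.2% of all genes, and 0 of the 7 were called by edgeR or by DESeq2's Wald test, against edgeR's 306 of 12453 genes (2.46%). Sqle had 57.0 ± 19.2 CPM in the 7 recorded (SD, n = 7) and 123 ± 77.4 CPM in the 5 other mice (SD, n = 5), which gave a log2-fold change of -1.22 (95% interval -2.05 to -0.39, SE 0.38, edgeR adjusted p = 0.138). Lss had 50.1 ± 11.8 (SD, n = 7) and 82.6 ± 41.4 CPM (SD, n = 5), or -0.77 on the log2 scale (SE 0.28, edgeR adjusted p = 0.217). These 2 members had an unadjusted p under 0.05 in the lower direction, as did 7.99% of all genes. The other log2-fold changes were -0.49 for Hmgcs1, -0.35 for Cyp51, -0.25 for Idi1, -0.24 for Insig1 and -0.08 for Srebf2. The members' median was -0.35 and that of all genes -0.01.

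This comparison depended on VDD2 and VDD3, both in the unrecorded set. The members' median log2-fold change was -0.52 without VDD2 and -0.079 without VDD3. Without VDD2, Sqle (log2-fold change -1.43, edgeR adjusted p = 0.00762) and Lss (-0.94, adjusted p = 0.0298) were called lower in the recorded mice, 2 of the 7 members against 2.79% of 12369 genes called lower. Without VDD3, 0 members were called, and the log2-fold changes of Srebf2 (0.06) and Idi1 (0.06) were above 0, as was that of Insig1 (0.10) without VDS2. In the other 11 fits with a mouse left out, neither Sqle nor Lss was called.

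Of the 16 other enzymes of cholesterol synthesis, 0 were called by edgeR for diet, set or their interaction over all 12 mice, while 1, 7 and 0 had an unadjusted p under 0.05, against 15.8%, 13.9% and 9.01% of all genes. For the sets DESeq2's Wald test called 2 lower in the recorded mice, Fdps and Dhcr7, among 373 of 12453 genes called lower. Voom called 1 lower, Dhcr7, among 348 genes called in either direction. For diet, Mvk, mevalonate kinase, had a log2-fold change of -0.34 (edgeR adjusted p = 0.496). Without VDD3 the diet median of the 16 was -0.40, and 1 of them was called lower, among 44 of 12493 genes called lower. For the sets, 15 of the 16 lay below 0 with a median of -0.44, and the smallest p-value was that of Dhcr7, a sterol reductase (-0.64, adjusted p = 0.133). Without VDD2, 7 of the 16 were called lower in the recorded mice, against 2.79% of all genes. Within the recorded mice 2 of the 16 were called lower in VDD-F1, against 5.11% of all genes. They were Hsd17b7 (log2-fold change -0.58, adjusted p = 0.00266) and Mvk (-0.55, adjusted p = 0.0354), named after their values were seen. Hsd17b7, a sterol ketoreductase, had 47.3 to 58.9 CPM in the 3 VDD-F1 and 76.5 to 83.9 CPM in the 4 VDS-F1 mice, and it was called in 7 of 7 fits with a mouse left out, against 2 of 7 for Mvk.

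The proteins that hold, escort and cut SREBP make up a list of 8 genes. For diet 0 of the 8 were called by edgeR or DESeq2 and 1 by voom (Rnf145, among 590 genes called). An unadjusted p under 0.05 in edgeR was found for 2, against 15.8% of all genes. In edgeR the smallest p-values were those of Rnf145, a sterol-responsive ubiquitin ligase (log2-fold change 0.74, edgeR adjusted p = 0.160), and Mbtps2, the site-2 protease (0.27, adjusted p = 0.197). Within the recorded mice 1 of the 8 was called, Rnf145, higher in VDD-F1 (0.82, adjusted p = 0.0124), among 726 of 12369 genes called higher. That call was lost without VDD5, where 0 of the 8 were called. Mbtps2 had 10.2 to 12.8 CPM in VDD-F1 and 8.61 to 10.1 CPM in VDS-F1 mice and was the 1 gene of these lists that did not overlap between the diets over all 12 mice, where 0.61% of all genes were higher in VDD-F1 without overlap. For the sets, Insig2, the second protein that retains SREBP, was called lower in the recorded mice (99.2 to 195 against 163 to 297 CPM, log2-fold change -0.78, SE 0.16, adjusted p = 0.0266). That call was lost in 7 of 12 fits with a mouse left out (those without VDD1, VDD4, VDD6, VDS1, VDS2, VDS3 or VDS4), with an adjusted p of up to 0.0795. Without VDD2, Insig2 and Scap, the escort of SREBP, were called lower, 2 of the 8 against 2.79% of all genes. Insig1 was not called in the comparison of the sets, with a log2-fold change of -0.24 (adjusted p = 0.756), and the difference between both genes was not tested.

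Among 7 other sterol-responsive SREBP-2 targets, 0 were called by edgeR for diet, set or interaction, while 1, 3 and 0 had an unadjusted p under 0.05, against 15.8%, 13.9% and 9.01% of all genes. For the sets Tmem97 and Rdh11 were called lower in the recorded mice by DESeq2 (among 373 of 12453 genes called lower) and by voom (among 348 genes called). Without VDD2, edgeR called 2 of the 7 lower, against 2.79% of all genes. In edgeR over all 12 mice the smallest p-values were those of Mmab, a cobalamin enzyme gene that shares its promoter region with Mvk (diet log2-fold change -0.49, edgeR adjusted p = 0.151), and of Tmem97, a sterol-regulated membrane protein (set log2-fold change -0.42, adjusted p = 0.0676). In the recorded mice alone 3 of the 7 were called lower in VDD-F1, against 5.11% of all genes. They were Mmab (-0.63), Aacs (-0.65) and the sterol carrier Stard4 (-0.37), named after their values were seen. With a further mouse left out, the number called ran from 0 (without VDD5) and 1 (without VDD4) to 3 (without VDS6). Of 11 genes of sterol export, storage and LXR, 0 were called by edgeR for diet and 2 had an unadjusted p under 0.05, against 15.8% of all genes. Abcg5 and Abcg8, whose products together pump sterols into bile, had the smallest p-values. Abcg5 had 52.3 to 133 CPM in VDD-F1 (median 83.7) and 33.5 to 66.7 CPM in VDS-F1 mice (median 40.7), and its log2-fold change was 0.93 (SE 0.24, edgeR adjusted p = 0.0969). Abcg8 followed with 0.71 on the log2 scale (SE 0.19, adjusted p = 0.100). DESeq2's Wald test called both higher in VDD-F1 (adjusted p = 0.00798 and 0.0142), among 349 of 12453 genes called higher. Voom also called both higher, among 590 genes called in either direction. For the sets edgeR called 0 of the 11, and DESeq2 called 1, Scarb1, lower in the recorded mice, among 373 of 12453 genes called lower. Abcg5 and Abcg8 were called higher in VDD-F1 in the recorded mice alone (1.13, adjusted p = 0.00179, and 0.86, adjusted p = 0.00564), among 726 of 12369 genes called higher. Both calls held in 7 of 7 fits with a mouse left out. In the 5 other mice their log2-fold changes were 0.65 and 0.52, and neither was called. VDD2 held the highest Abcg5 and Abcg8 level of the 12 livers and the lowest level of all 7 members.

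Fatty acid synthesis, the arm governed by Srebf1, had called genes between the sets. For diet 0 of its 10 genes were called by edgeR or DESeq2 and 1 by voom (Thrsp, among 590 genes called). An unadjusted p under 0.05 in edgeR was found for 0, and the median log2-fold change was -0.00204. The smallest p-values were those of Scd1 (0.64, edgeR adjusted p = 0.346) and Thrsp (-1.0, adjusted p = 0.414). Within the recorded mice 3 of the 9 tested were called lower in VDD-F1, against 5.11% of all genes, and the median was -0.45. They were Thrsp (-2.0), Fasn (-0.83) and Acacb (-0.77), named after their values were seen. Between the sets, all 10 lay below 0 in the recorded mice with a median of -1.28, and 4 of the 10 were called lower, against 1.56% of all genes. The count was 6 with DESeq2 (373 of 12453 genes called lower), 9 without VDD2 (345 of 12369), 3 without VDD3 (135 of 12493), 3 in VDS-F1 mice alone (111 of 12212) and 0 in VDD-F1 mice alone (16 of 12633), with a log2-fold change below 0 for all 10 genes in both diet groups. The difference between this list and cholesterol synthesis was not tested. Acaca, acetyl-CoA carboxylase, had 125 to 164 CPM in the recorded and 188 to 503 CPM in the other mice, without overlap, as were 0.907% of all genes in this direction (log2-fold change -1.35, SE 0.20, edgeR adjusted p = 0.00247). Fasn, fatty acid synthase, had 747 to 1657 and 1101 to 5928 CPM (log2-fold change -1.90, adjusted p = 0.00882). Pnpla3, a lipid droplet enzyme, had 0.278 to 1.22 and 0.887 to 16.0 CPM (-3.56, adjusted p = 0.00595), and Elovl6, a fatty acid elongase, had 72.8 to 122 and 102 to 365 CPM (-1.20, adjusted p = 0.0327). Acaca was called in 12 of 12 fits with a mouse left out, Fasn in 11 (all but that without VDS2) and Elovl6 in 2 (those without VDD2 or VDS1). Pnpla3 was also called in 12 of 12, but it lay near the floor in the recorded mice, with at most 1.22 CPM. In those mice alone only 9 of the 10 genes passed the filter on counts. The call of Pnpla3 thus rests on its level in the other mice and adds no separate support. Srebf1 itself had a log2-fold change of -0.27 between the sets (adjusted p = 0.744).

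**Figure D4:**
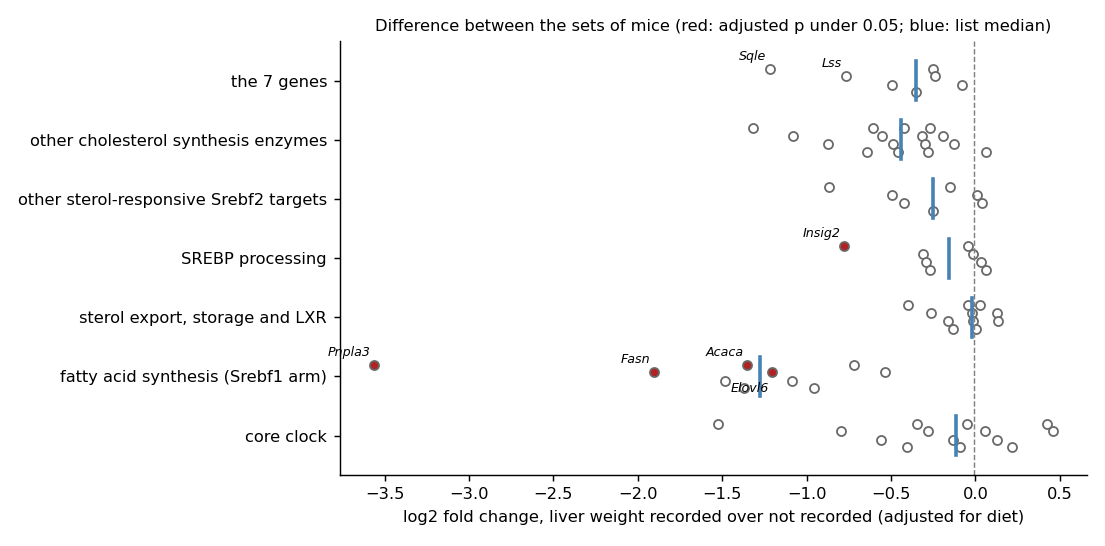
Log2-fold change of recorded over unrecorded mice, adjusted for diet (horizontal axis), for each gene of the 7 lists, with called genes filled in red, the median of each list as a blue bar and the median of all genes (-0.01) as a dashed line. The fatty acid synthesis list lies farthest to the left (median -1.28), and the 7 genes (median -0.35) and the 16 other enzymes (median -0.44) lie between it and the dashed line.

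Core clock genes were read because the pathway's transcripts vary over the day and the time of dissection is not given in the sources used here. For diet 0 of 14 were called by edgeR, 3 had an unadjusted p under 0.05 (15.8% of all genes) and 13 lay below 0, with a median log2-fold change of -0.34. The smallest p-values were those of Cry2 (-0.52, edgeR adjusted p = 0.100) and Hlf (-0.52, adjusted p = 0.103). Both were called lower in VDD-F1 by DESeq2's Wald test (adjusted p = 0.0218 and 0.0216), among 155 of 12453 genes called lower. Voom called both and Per2 lower, among 590 genes called in either direction. With the set of mice as a covariate, edgeR called Cry2 lower (adjusted p = 0.0468), among 13 of 12453 genes called lower. For the sets 0 of 14 were called by edgeR and 2 had an unadjusted p under 0.05 (13.9% of all genes), and the smallest p-values were those of Per2 (-0.79, adjusted p = 0.136) and Cry2 (-0.35, adjusted p = 0.144). DESeq2 called Per2 lower in the recorded mice (adjusted p = 0.0349), among 373 of 12453 genes called lower. In edgeR the interaction was called for 0 of 14, with 8 at an unadjusted p under 0.05, against 9.01% of all genes, and had its smallest p-values for Nr1d1, a clock repressor (-3.14, SE 0.53, adjusted p = 0.0573), and Dbp, a clock output factor (-6.78, adjusted p = 0.175). DESeq2 called the interaction for 138 of 12453 genes and 3 of 14, Nr1d1 (adjusted p = 2.0e-07), Dbp and Tef, and voom for 1, Nr1d1. Without VDD2 edgeR called it for 3 of 14, Nr1d1, Dbp and Hlf, against 2.68% of all genes. Nr1d1 had 51.1 to 57.2 CPM in the recorded and 132 to 170 CPM in the unrecorded VDD-F1 mice, and 58.1 to 227 and 49.8 to 57.7 CPM in the VDS-F1 mice. In the recorded mice alone 7 of the 14 clock genes were called lower in VDD-F1, against 5.11% of all genes. With a further mouse left out, that number ran from 2 (without VDD4) to 8 (without VDS6, where 3 were called higher). The part of the time of dissection in the levels of the 7 genes was not tested.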

How the data were processed

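RNA of 12 livers was sequenced after removal of ribosomal RNA. After trimming, the authors used STAR (version not given in the sources used here), mm10 (GRCm38) and GENCODE M15, and deposited raw counts per gene, ignoring the strand and for each strand, not normalized. Fragments that map to several places are not in these counts. The deposited reverse-strand count was used, which held 92.7% to 95.8% of the stranded counts. Symbols and positions came from GENCODE M21 (52403 of 52636 IDs matched).

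A mean count of 12 or more was required of a gene, and the genes left were tested with edgeR 4.0.16 (TMM, quasi-likelihood test in the legacy form) in R 4.3.3, as VDD-F1 against VDS-F1, as recorded against unrecorded liver weight with diet in the model, and as their interaction. P-values were adjusted by Benjamini-Hochberg over all genes tested, and a gene was called at an adjusted p under 0.05. The 95% intervals use the fit's standard error. The study's threshold for DEGs also asks for a log2-fold change past 1. CPM use TMM library sizes, and log2 CPM a prior count of 2.

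The alternatives were DESeq2 1.42.0, voom in limma 3.58.1, other filters, size factors, the unstranded count, subsets and left-out mice. Leaving out mice within the recorded set was chosen after seeing the data. On simulated data with 200 of 12453 genes changed by 1.5 on the log2 scale, edgeR recovered 172 for diet with 8 false calls, 181 for the sets with 14, and 110 for the interaction with 3. Apart from the planted changes each gene was drawn with 1 mean for all mice, so other differences between the sets were absent. The members' diet log2-fold changes, -0.10 to 0.14, were far smaller than 1.5. The recovery therefore does not measure the power for such changes. The members and the gene lists were chosen with earlier results of these data known. All 7 members are named, and of each other list the called genes (at most 6) or, where none was called, at most 2 with the smallest p-values. Values of some single genes of the lists are not reported here, though the counts and medians include them. Figures were drawn with matplotlib 3.10.9.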

Additional observations from a re-analysis of the deposited data

Results flagged for a closer look

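In 14 groups of 6 mice (7 genes in each diet group), a value was marked where its gap to the nearest mouse exceeded Dixon's critical share of the group's range, and 4 values were. Chance marks about 1 in 20 groups. Srebf2 in VDD3 was 120 CPM, against 63.6 to 83.0 CPM in the other VDD-F1 mice, and Cyp51 in VDD3 was 318 CPM. Srebf2 in VDS6 was 105 CPM, and Insig1 in VDS2 was 708 CPM, where the highest of the other VDS-F1 mice had 392 CPM.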

How the results depend on the processing

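No member was called for diet, set or interaction with DESeq2's Wald test, DESeq2's size factors, a total count of 12 as filter, the count that ignores the strand or the newer form of edgeR. For diet the members called were 1 in the 7 recorded mice and 0 to 1 with a mouse left out, within the recorded set or over all. The called genes of the other lists numbered 4 with DESeq2, 7 with voom, 1 with the set as covariate, 18 in the recorded mice and 0 to 24 with a mouse left out. Diet log2-fold changes changed sign for Srebf2 (0.051), Idi1 (-0.033), Lss (0.013) and Cyp51 (0.077) in the 5 other mice, for Insig1 with voom (0.063) and in the recorded mice (0.16), and for Hmgcs1 with voom (-0.019), the covariate (-0.0053) and in the recorded mice (-0.32). With a mouse left out they ranged from -0.17 to 0.29 for Insig1, -0.43 to 0.30 for Hmgcs1, -0.17 to 0.33 for Idi1, -0.79 to 0.17 for Sqle, -0.44 to 0.20 for Lss and -0.34 to 0.13 for Cyp51. For the sets, 2 members were called without a filter, 1 with voom and 0 to 2 with a mouse left out. Of the other lists 13 were called with DESeq2, 20 without a filter, 10 with voom, 1 in VDD-F1 mice alone and 2 to 20 with a mouse left out. Srebf2 changed sign in VDS-F1 mice alone (0.074), and with a mouse left out Srebf2 ranged from -0.16 to 0.063, Insig1 from -0.39 to 0.10 and Idi1 from -0.44 to 0.060. Hmgcs1 ranged from -0.71 to -0.098 and Cyp51 from -0.52 to -0.030 in those fits. The interaction ranged from -0.38 to 0.98 for Insig1, -1.24 to -0.054 for Hmgcs1, -0.18 to 0.91 for Idi1, -1.11 to 0.24 for Sqle, -1.03 to 0.12 for Lss and -0.66 to 0.35 for Cyp51. The causes were not tested. Over all genes, the diet calls numbered 5, and 504 with DESeq2, 590 with voom, 85 without a filter, 20 with the newer form, 28 with the covariate and 0 to 420 with a mouse left out. The set calls numbered 306, and 581 with DESeq2, 555 without a filter, 174 with no diet term and 143 to 498 with a mouse left out. The interaction calls numbered 11, and 138 with DESeq2, 368 without a filter, 62 with voom, 17 with the newer form and 3 to 332 with a mouse left out. Among the other lists they numbered 0, and 3 with DESeq2, 1 each with voom, the newer form and the filter on total counts, and 0 to 4 with a mouse left out. Without a filter they were 9 clock genes and 3 others.

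Same-numbered mice had deviations from their group means that correlated at -0.060, 0.10, -0.076, 0.066, 0.061 and -0.022, which gave no sign of pairing by replicate number. These values cannot show whether same-numbered mice were bred or handled together. With a replicate block 0 members were called in any comparison, and 0 genes of the other lists for the sets. The block left 19 genes called for diet, 0 for the sets and 2 for the interaction. Under it the diet log2-fold changes of Insig1 (0.027) and Hmgcs1 (-0.058) and the interaction of Srebf2 (0.0098), Sqle (0.44), Lss (0.18) and Cyp51 (0.40) changed sign. In the blocked fit the set difference rests on replicate 3 alone, since the other same-numbered mice share a set. Its log2-fold changes were larger than in the main fit, with -3.07 for Sqle, -2.19 for Hmgcs1 and -1.84 for Lss.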
